A study of Mus musculus with 12 samples.

Results

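Usage of the Tcra variable (Trav) and joining (Traj) segments was compared between wild-type (WT) mice and mice in which both copies of DPASE are knocked out (KO), in immature thymocytes taken 48 h after they had been labelled. The comparison rests on 4 of the 12 libraries of the series, 2 per genotype, chosen by their titles. The sequenced cells were CD4 and CD8 double-positive (DP) thymocytes sorted as negative for CD3e and positive for ZsGreen. The mice were 4 to 6 weeks old. Each had received 1 mg of tamoxifen into the peritoneum 48 h before it was killed. All 4 libraries share a C57BL/6J background in which the Tcra-Tcrd loci come from strain 129 and carry TcrdCreER, a Cre recombinase that tamoxifen activates, and a ZsGreen reporter at Rosa26. The reporter is written Rosa26ZsG/ZsG in the strain label and Rosa26ZsG/+ in the genotype label, a disagreement that could not be settled. The genotypes are labelled homozygous WT and homozygous DPASEKO. The series speaks of groups of 2 mice without saying whether a library is 1 mouse. The p-values of limma therefore measure only the spread between libraries of a group, taken over all 12 libraries unless stated. That spread may be technical.

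Each T cell receptor alpha chain is encoded by a Trav segment joined to a Traj segment by the V(D)J recombinase, whose subunits are encoded by Rag1 and Rag2. In DP thymocytes the same Tcra allele can rearrange repeatedly. The first rounds join Trav segments near the Traj array to its 5' end, under the TEA and Traj49 promoters, and later rounds replace that join with a more distant Trav segment and a more 3' Traj segment. As background knowledge, DPASE is known as a regulatory element at the Rag1 and Rag2 genes. The order of the segments on the chromosome therefore serves as the axis along which the genotypes were compared.

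A library's table gives the fraction of the repertoire held by every Trav-Traj combination, called a pair here. The 4 tables have 80 Trav segments in common, of 85 listed in any table of the series, and 43 Traj segments, which makes 3440 pairs. Shares are percentages of the total over those segments in each table. In the GENCODE M21 annotation of GRCm38, all segments that were matched lie on the plus strand of chromosome 14. The Trav segments run from Trav1, which starts at 52427928, to Trav21-dv12, which ends at 53876752. The Traj segments run from Traj58, starting at 54157280, to Traj2, ending at 54217901, upstream of Trac. Trav9-3 and Trav13-5 were not matched to the annotation and kept their place in the deposited row order, in which the matched Trav segments follow the chromosome.

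The Traj segments around which the results turn are given below from GENCODE M21 transcripts, in order from 5' to 3' along the array. They include segments that rose in KO cells (Traj52, Traj45, Traj42), the last one with a positive mean log2 difference (Traj31), and segments that fell (Traj12, Traj9, Traj2). Capitals mark the codons of the Phe-Gly-X-Gly motif that joining segments share, where X is any residue. The motif was found in 40 of the 43 Traj segments, among both those that rose and those that fell, and not in Traj44, Traj38 or Traj33. The reference is of strain C57BL/6J, whereas the locus of these mice is of strain 129 origin.
Traj52 (chr14:54165316-54165381): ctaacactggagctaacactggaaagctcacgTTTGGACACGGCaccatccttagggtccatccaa
Traj45 (chr14:54172828-54172890): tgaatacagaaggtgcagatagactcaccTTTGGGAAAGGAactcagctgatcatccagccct
Traj42 (chr14:54175773-54175836): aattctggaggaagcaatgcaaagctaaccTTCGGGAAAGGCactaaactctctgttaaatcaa
Traj31 (chr14:54187895-54187951): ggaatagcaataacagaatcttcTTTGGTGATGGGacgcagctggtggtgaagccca
Traj12 (chr14:54206553-54206610): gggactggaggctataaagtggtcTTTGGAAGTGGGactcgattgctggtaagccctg
Traj9 (chr14:54209393-54209450): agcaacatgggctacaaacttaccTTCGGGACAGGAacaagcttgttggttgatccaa
Traj2 (chr14:54217836-54217901): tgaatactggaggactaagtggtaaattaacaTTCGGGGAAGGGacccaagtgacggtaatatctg

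The replicate 1 and replicate 2 tables were not alike, in either genotype. Replicate 1 tables summed to 0.998 in WT and KO, with a smallest pair share above 0 of 0.000347% in WT and 0.000426% in KO. Replicate 2 tables summed to 1.99 in WT and 1.98 in KO, with smallest shares of 0.00952% and 0.00724%. Pairs at 0 made up 1.22% and 2.88% of the replicate 1 tables and 45.2% and 44.8% of the replicate 2 tables. The depth in reads is unknown. Libraries with the same replicate number deviated together from their group means, so values are given for each library and differences within each replicate number, and tests with the replicate number as a block are given where they change a result. Neither DPASE nor Rag1, Rag2 or any gene that marks DP cells can be read from such tables, so neither genotype nor cell type could be checked. In RNA from sorted cells, fewer cells using a segment and less RNA per such cell cannot be told apart.

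KO libraries had more of the 5' part of the Traj array and less of its 3' part. The 13 segments from Traj58 to Traj42 held 30.1% and 33.4% of the WT repertoires (replicates 1 and 2) and 46.5% and 46.4% of the KO repertoires. The 14 segments from Traj21 to Traj2 held 26.8% and 21.6% in WT and 10.5% and 10.5% in KO. The 16 middle segments, Traj40 to Traj22, held 43.2% and 45.1% in WT and 43.1% and 43% in KO. KO minus WT was 14.7 percentage points in the 5' window and -13.6 points in the 3' window, and neither difference overlapped the spread between replicates. With 2 libraries against 2, an exact two-sided permutation test has 6 arrangements and cannot go below the p of 0.333 that both windows gave.

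Segment by segment, limma (adjusted p under 0.05 over 43 Traj segments, on log2 of percent + 0.01) called 12 Traj segments that rose and 16 that fell in KO, 27.9% and 37.2% of those tested and 65.1% together. With the replicate block, 14 rose and 21 (48.8%) fell, 81.4% together. Leaving out WT replicate 1, or KO replicate 2, brought the count of 28 to 18. In the 5' window 10 of 13 rose, in the middle window 2 rose and 3 fell, and in the 3' window 13 of 14 fell. The median log2 differences in these windows were 0.53, -0.02 and -1.46, against -0.03 over all 43. KO libraries lay above both WT libraries for 16 segments (37.2%) and below both for 20 (46.5%), 83.7% together. Shares add up to 100% in every library, so a fall of some segments is by itself a rise of others. When each library was centred on its mean log share, the median over all 43 moved from -0.03 to 0.32, with 19 rising and 15 falling. Of the middle window 7 then rose and 2 fell, and its median was 0.33. The directions of the 5' and 3' windows held on both scales.

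**Figure D1:**
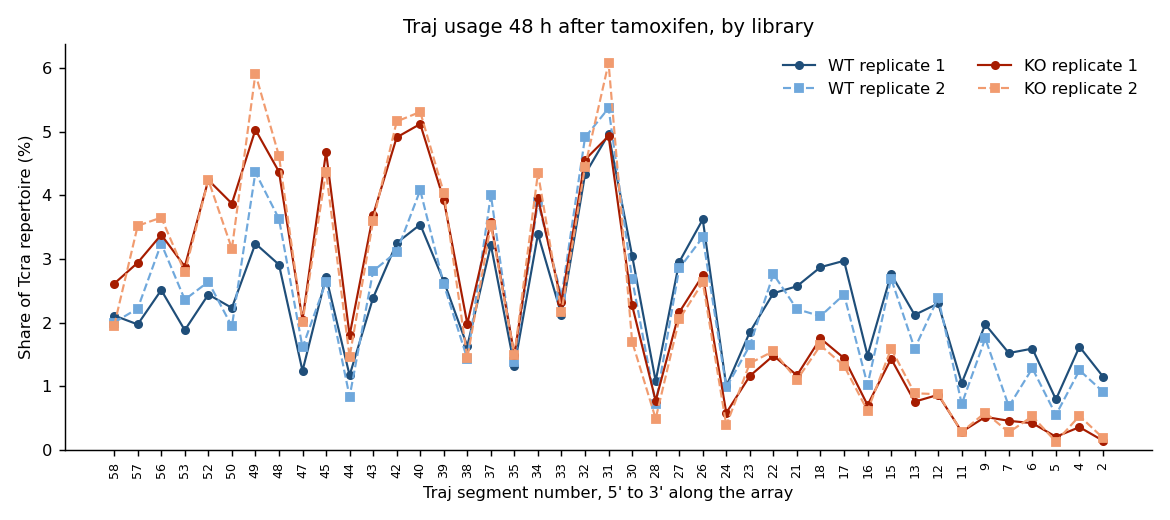
Share of the Tcra repertoire (percent, vertical axis) held by each of the 43 Traj segments in 5' to 3' order, with 1 line per library. The 2 KO lines run above the 2 WT lines from Traj57 to Traj39, the 4 lines cross between Traj38 and Traj31, and the KO lines lie below WT towards Traj2, where WT held 1.15% and 0.912% and KO 0.142% and 0.185%.

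At the extreme 5' end, the TEA window (Traj58 to Traj53, downstream of the promoter used in first rearrangements) had 2 of 4 segments that rose, Traj57 and Traj53. Traj58, the most 5' segment, held 2.11% and 2% in WT and 2.61% and 1.95% in KO. Its groups overlapped, and it did not pass (log2 difference 0.14, SE 0.26, adjusted p = 0.667, limma). Traj57 held 1.97% and 2.22% in WT against 2.94% and 3.52% in KO, without overlap (0.62, SE 0.20, adjusted p = 0.0206, limma). Traj56 was at 2.51% and 3.24% in WT and 3.38% and 3.65% in KO, and passed only with the replicate block (0.30, adjusted p = 0.226 without and 0.0221 with it, limma). Traj53 was at 1.88% and 2.36% in WT and 2.88% and 2.79% in KO (0.43, adjusted p = 0.0311, limma). Without WT replicate 1, KO replicate 1 or KO replicate 2, Traj53 lost its call (adjusted p up to 0.232, limma), and Traj57 lost its call without WT replicate 1 or KO replicate 2 (0.129 and 0.13). The TEA window as a whole held 8.47% and 9.81% in WT and 11.8% and 11.9% in KO.

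The next window, Traj52 to Traj45, follows the TEA window and contains the promoter at Traj49. It held 14.8% and 16.8% of the WT and 24.2% and 24.3% of the KO repertoire, and 5 of its 6 segments rose. Traj52 held 2.44% and 2.64% in WT and 4.24% in both KO libraries (log2 difference 0.74, SE 0.13, adjusted p = 0.00082, limma). Traj50 was at 2.23% and 1.94% in WT and 3.87% and 3.16% in KO (0.75, adjusted p = 0.00191, limma). Traj49, the segment that gives the promoter its name, was at 3.24% and 4.36% in WT and 5.03% and 5.91% in KO, without overlap. Its rise (0.53, adjusted p = 0.0199, limma) lost its call when WT replicate 1 was left out (0.32, adjusted p = 0.159, limma) or KO replicate 2 (0.42, 0.128). Traj45 held 2.72% and 2.64% in WT and 4.68% and 4.37% in KO, the largest rise of any Traj segment tested (0.76, SE 0.17, adjusted p = 0.00403, limma). The segment of this window that did not pass was Traj47, named here after its values were seen, at 1.24% and 1.61% in WT and 2.04% and 2.01% in KO (0.51, adjusted p = 0.126 without and 0.0112 with the replicate block, limma).

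From Traj44 to Traj39, a stretch of 5 segments downstream of both promoters, all 5 rose, and the stretch held 13% and 13.4% of the WT and 19.5% and 19.6% of the KO repertoire. Traj42 held 3.25% and 3.11% in WT and 4.91% and 5.16% in KO (0.66, SE 0.11, adjusted p = 0.000775, limma). Traj39 was close between replicates of each genotype, at 2.65% and 2.6% in WT and 3.93% and 4.04% in KO (0.60, SE 0.12, adjusted p = 0.00211, limma). Traj44, the least used of the stretch, was at 1.17% and 0.835% in WT and 1.8% and 1.46% in KO (0.70, SE 0.26, adjusted p = 0.0342, limma). Its call was lost without WT replicate 2, where the difference was 0.46, or without KO replicate 1 or 2 (adjusted p 0.0582 to 0.197, limma). The middle-window segments that rose were Traj39 and Traj40, the latter named after its values were seen (0.46, adjusted p = 0.0122, limma).

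The genotypes crossed between Traj38 and Traj31, where none of the 7 segments was called by limma without or with the replicate block. This stretch held 21% and 23.4% of the WT and 22.8% and 23.5% of the KO repertoire. Traj31, the most used segment in both replicate 2 libraries and in WT replicate 1, was at 4.96% and 5.37% in WT and 4.93% and 6.08% in KO. Its groups overlapped (0.09, SE 0.14, adjusted p = 0.635, limma). On the centred scale 5 of the 7 rose, Traj31 among them (0.44, adjusted p = 0.0173, limma). The next segment, Traj30, had less in KO, 2.27% and 1.7% against 3.05% and 2.68%, and passed only with the replicate block (-0.54, adjusted p = 0.106 without and 0.00851 with it, limma). From Traj30 to Traj22, 3 of 7 segments fell and, with the block, 7 of 7. The 3 were Traj24, Traj23 and Traj22, named after their values were seen, with log2 differences of -1.05, -0.47 and -0.78. The stretch held 16% and 15% in WT and 11.2% and 10.2% in KO.

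**Figure D2:**
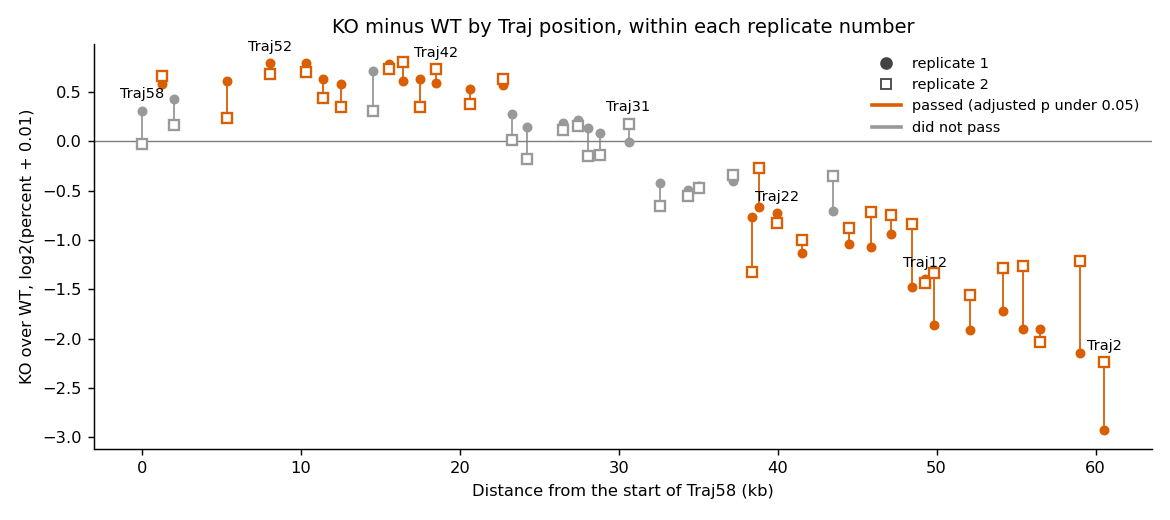
Log2 ratio of KO to WT share of each Traj segment (vertical axis, shares in percent plus 0.01) against its distance from the start of Traj58 in kb, within replicate 1 (filled circles) and replicate 2 (open squares). Orange segments passed at an adjusted p under 0.05 in limma. Values lie above 0 at the 5' side, near 0 around Traj31 and below 0 beyond it, down to -2.93 and -2.24 for Traj2.

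The difference was larger towards the 3' end, with median log2 values of -0.52 for Traj30 to Traj22, -0.96 for Traj21 to Traj12 and -1.68 for Traj11 to Traj2. From Traj21 to Traj12, 6 of 7 segments fell, and the stretch held 17.1% and 14.4% in WT and 8.12% and 8.03% in KO. The exception was Traj18, the joining segment of the invariant NKT cell chain, at 2.87% and 2.1% in WT and 1.75% and 1.64% in KO (-0.53, adjusted p = 0.118 without and 0.0119 with the replicate block, limma). Traj12 was at 2.3% and 2.39% in WT and 0.864% and 0.873% in KO (-1.42, SE 0.16, adjusted p = 7.11e-05, limma). All 7 segments from Traj11 to Traj2 fell, together from 9.69% and 7.13% to 2.37% and 2.51%.

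Within these last segments, Traj11 was at 1.05% and 0.719% in WT and 0.282% and 0.281% in KO (log2 difference -1.59). Traj9 was at 1.97% and 1.75% in WT and 0.516% and 0.584% in KO (-1.74, SE 0.15, adjusted p = 1.40e-05, limma). Both KO libraries lay below both WT libraries for each of the 7. Traj7 varied most between WT libraries, at 1.52% and 0.681%, against 0.455% and 0.274% in KO (-1.50, SE 0.44, adjusted p = 0.0158, limma). Its call was lost without WT replicate 1, where the difference was -0.93, or without KO replicate 2 (adjusted p 0.137 and 0.101, limma). Traj6 (-1.58), Traj5 (-1.97) and Traj4 (-1.68) fell by amounts between those of Traj7 and Traj2. Traj2, the most 3' segment tested and the nearest to Trac, was at 1.15% and 0.912% in WT and 0.142% and 0.185% in KO, the largest fall of all (-2.59, SE 0.18, adjusted p = 3.37e-06, limma). Traj9, Traj12 and Traj2, whose sequences are given above, carry the same 4-residue motif as Traj52, Traj45 and Traj42, which rose.

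The same shift can be read from where the array is used up. Counting from Traj58, 25% of usage was reached at Traj43 and Traj45 in WT and at Traj48 and Traj49 in KO. The 50% point lay at Traj32 and Traj34 in WT and at Traj40 in both KO libraries, and the 75% point at Traj21 and Traj23 in WT and at Traj31 in both KO libraries. The usage-weighted mean distance of the joined Traj from Traj58 was 29.2 and 27.4 kb in WT and 22.3 kb in both KO libraries. The 2 KO libraries were closer to each other than the 2 WT libraries at each of these points. The effective number of Traj segments (the exponential of the Shannon entropy of usage) was 39.8 and 37.8 in WT and 33.5 and 32.5 in KO.

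The difference at 48 h was compared with the difference in the other samplings of the series, which share no libraries with it. Against the 24 h cohort, limma called 13 of 43 Traj segments (30.2%), of which 10 (23.3%) had a higher KO minus WT difference at 48 h and 3 (6.98%) a lower one. With the replicate block 26 were called (60.5%). The 10 were all in the interval from Traj43 to Traj31, with Traj39 (0.97), Traj42 (0.90) and Traj31 (0.84) among them. The 3 were Traj11 (-1.10), Traj2 (-0.81) and Traj9 (-0.69). Beside this, KO minus WT was -11.8 points at 24 h and -1.07 points at 48 h in the middle window, and 11.7 and 2.72 points in the TEA window. The number of calls depended on the scale: on the centred scale, where the median over all 43 moved from 0.24 to 0.05, 2 were higher and 1 lower, and 16 were higher and 11 lower with the block as well. In a fit of the 8 tamoxifen-labelled libraries alone there were 0 calls without the block, with 14 at an unadjusted p under 0.05, and with it 18 were higher and 6 lower. Without the block, the count of 13 was 2 without WT replicate 1 or KO replicate 2 at 48 h and 3 without KO replicate 1. Against the steady-state repertoire limma called 0 of 43 (7 at an unadjusted p under 0.05), and with the replicate block 6 (14%), all lower at 48 h: Traj22, Traj21, Traj17, Traj12, Traj9 and Traj5. That direction depended on the scale, since with the block on the centred scale 3 were higher and 2 lower. With the block, 3 were called without the 2 Trav15 segments, all lower. For Trav segments, limma called 0 of 80 (0%) against either sampling, with 1 and 0 at an unadjusted p under 0.05, and 0 with the block, with 20 and 2.

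On the variable side, KO libraries had lower shares of Trav segments far from the Traj array and higher shares of those near it. In chromosomal order, the 27 farthest segments (distal zone, Trav1 to Trav12d-3) held 27.4% and 19.8% in WT and 18.9% and 16.4% in KO. The central zone (26, Trav14d-2 to Trav12-1) held 35.9% and 30.9% in WT and 31.6% and 26.4% in KO. The 27 segments nearest to the array (proximal zone, from Trav13-1 to Trav21-dv12) held 36.7% and 49.3% in WT and 49.5% and 57.2% in KO. The 2 WT libraries differed from each other by more than the genotype means did. The distal and proximal groups were only just apart, and the central groups overlapped. The direction was the same within each replicate number: the distal zone differed by -8.47 and -3.39 points, the proximal zone by 12.7 and 7.94. The usage-weighted mean Trav rank, with Trav1 as 1 and Trav21-dv12 as 80, was 42.5 and 47 in WT and 48.5 and 50.9 in KO.

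No Trav segment passed limma without the replicate block (0 of 80, 0%, 1 at an unadjusted p under 0.05). With the block, 15 rose and 13 fell, 35% of those tested: 10 fell in the distal zone, 1 rose and 3 fell in the central zone, and 14 rose in the proximal zone. These calls depended on the steady-state libraries: with the block there were 0 in a fit of the 8 labelled libraries (30 at an unadjusted p under 0.05). Leaving out a replicate number at 48 h with the block leaves 1 library per genotype there. Such a fit holds no replication at 48 h and cannot show whether the calls rest on 1 replicate. Without any test, 20 of 27 distal segments were lower in KO in both replicates, with median log2 differences of -0.52 and -0.37. In the proximal zone, 27 of 27 were higher in replicate 1 and 22 of 27 in both, with medians of 0.50 and 0.45. Over all 80 Trav segments, 34 were lower and 25 higher in both replicates, and 33 were higher in replicate 1. KO libraries lay above both WT libraries for 12 Trav segments (15%) and below both for 5 (6.25%).

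**Figure D3:**
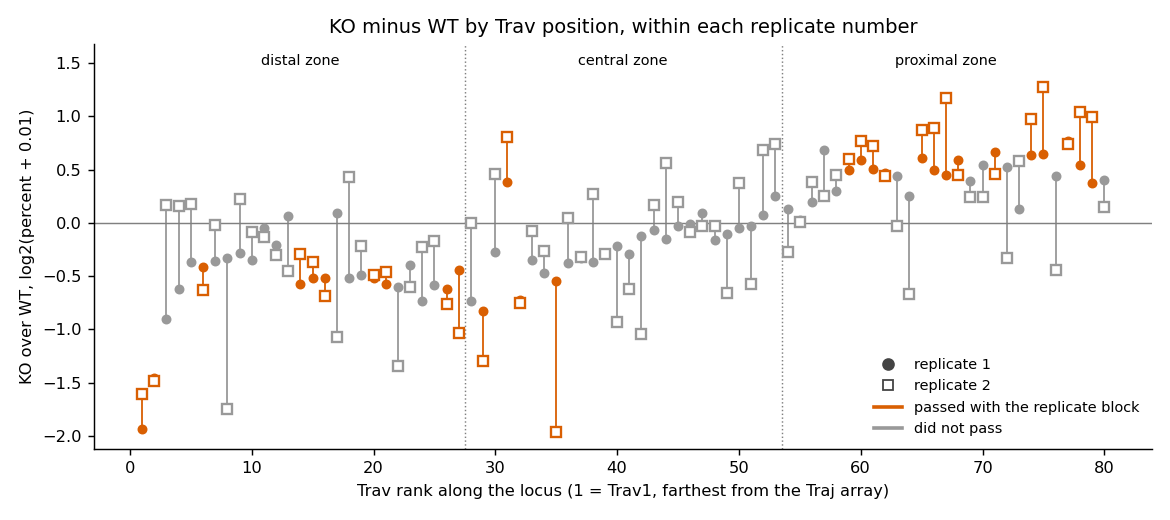
Log2 ratio of KO to WT share (shares in percent plus 0.01) for each of the 80 Trav segments in chromosomal order, from Trav1 at rank 1, within replicate 1 (filled circles) and replicate 2 (open squares). Orange marks segments that passed in limma with the replicate block. All 27 proximal segments lie above 0 in replicate 1, and Trav1 and Trav2 at the left are the lowest in replicate 1.

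Among segments with a mean share of at least 0.5%, the most negative differences were at the distal end. Trav1, the segment of the MAIT cell chain and the farthest from the Traj array, was at 1.31% and 0.518% in WT and 0.333% and 0.163% in KO, without overlap (log2 difference -1.78, adjusted p = 0.941 without and 0.0151 with the replicate block, limma). Trav2 was at 1.24% and 0.393% in WT and 0.443% and 0.133% in KO. Its replicates differed so much that the groups overlapped, whereas its differences within replicates were -1.46 and -1.49 (adjusted p = 0.00653 with the block, limma). The third segment from that end, Trav3-1, was at 1.3% and 1.68% in WT and 0.688% and 1.89% in KO. Its differences, -0.90 in replicate 1 and 0.17 in replicate 2, had opposite signs. In the central zone, Trav4d-4 was at 1.56% and 1.15% in WT and 0.946% and 0.681% in KO (-0.73, adjusted p = 0.0201 with the block, limma). The distal segments Trav9d-3 (-0.69) and Trav6d-6 (-0.61) also passed with the block and overlapped between genotypes. Without the block, leaving out a library compares different replicate numbers and moved these values widely. Trav6d-6 turned to 0.54 without WT replicate 1 and 0.63 without KO replicate 2, and was -1.75 and -1.84 without the other 2 libraries. Trav9d-3 ranged from -1.30 (without WT replicate 1) to -0.08 (without WT replicate 2), Trav2 from -2.31 (without KO replicate 1) to -0.65 (without KO replicate 2), and Trav1 from -2.44 (without WT replicate 2) to -1.12 (without WT replicate 1). Trav4d-4 stayed between -0.97 and -0.50.

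At the proximal end, Trav17 was at 0.86% and 0.719% in WT and 1.47% and 1.21% in KO, similar within both replicates (0.77 and 0.74, adjusted p = 0.0151 with the block, limma). Trav3-4 was at 0.86% and 1.2% in WT and 1.36% and 2.93% in KO, the largest positive mean difference (0.97) among segments with a mean share of at least 0.5%. Trav4-4-dv10 was at 1.87% and 2.38% in WT and 2.55% and 5.38% in KO (0.81), and Trav14-3 at 1.57% and 3.5% in WT and 2.45% and 6.91% in KO (0.81). Both had a larger difference in replicate 2 (1.17 and 0.98) than in replicate 1 (0.45 and 0.64). Trav3-3 was at 2.51% and 1.33% in WT and 3.85% and 2.43% in KO (0.74), and Trav19 at 0.84% and 0.24% in WT and 1.23% and 0.503% in KO (0.79). All 4 passed with the block, as did Trav3-4 and Trav20, which is annotated as a pseudogene. Without the block, leaving out a library moved Trav19 between -0.09 (without WT replicate 2) and 1.68 (without WT replicate 1), and Trav20 between -0.02 and 1.38 for the same libraries. Trav14-3 moved between 0.06 (without KO replicate 2) and 1.55 (without KO replicate 1), Trav4-4-dv10 between 0.27 and 1.35 and Trav3-4 between 0.41 and 1.52 for the same libraries. Trav3-3 moved between 0.29 (without WT replicate 2) and 1.19 (without WT replicate 1). Trav17 moved least, between 0.61 and 0.90. The last segment before the Traj array, Trav21-dv12, held 1.79% and 0.806% in WT and 2.37% and 0.895% in KO and did not pass without or with it (0.27, adjusted p = 0.983 and 0.133, limma).

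Many Trav segments exist in near-identical copies, a set near the array and a duplicated set with the suffix d farther from it. Over the last 280 bases of their GENCODE M21 transcripts, 47 of the 78 segments with a sequence were at least 97% identical to another, and Trav6-6 and Trav6d-6 were identical. Assignment between such copies is uncertain, and how the authors assigned them is not given in the sources used here. As deposited, all suffix d segments held 34.6% and 32.2% of the WT and 25.9% and 24.3% of the KO repertoire. Of 33 matched copies, the d copy had the lower KO to WT ratio in 32 in replicate 1, 28 in replicate 2 and 27 in both. The median log2 difference was -0.44 and -0.29 for d copies and 0.25 and 0.25 for their counterparts. The pair Trav4d-4 and Trav4-4-dv10, 97.1% identical, had -0.72 against 0.45 in replicate 1 and -0.75 against 1.17 in replicate 2.

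The Trav15 segments, which can also rearrange in Tcrd and so carry a dv6 name, separated the replicates rather than the genotypes. Trav15-2-dv6-2 held 0.559% of WT replicate 1 and 0.669% of KO replicate 1, but 18.6% of WT replicate 2 and 11.7% of KO replicate 2. Its d copy, Trav15d-2-dv6d-2, held 0.342% and 0.188% in replicate 1 and 7.7% and 3.12% in replicate 2, in the order WT and KO, and fell with the replicate block (-1.07, adjusted p = 0.0277, limma). Without the block, that difference was -3.29 and -3.06 without WT replicate 1 and KO replicate 2, and 1.16 and 0.93 without WT replicate 2 and KO replicate 1. The other 2 members did not share this: Trav15-1-dv6-1 was at 0.614% and 0.23% in WT and 0.709% and 0.303% in KO, and Trav15d-1-dv6d-1 at 0.743% and 0.202% in WT and 0.486% and 0.0736% in KO (both named after their values were seen). The last 60 bases of the 4 segments show which are alike at the end next to the joined Traj. The gene of Trav15-2-dv6-2 spans chr14:53649404-53649994 and that of its d copy chr14:52956782-52957400. Capitals mark bases that differ from Trav15-2-dv6-2, 0 in its d copy and 12 in each of the other 2.
Trav15-2-dv6-2: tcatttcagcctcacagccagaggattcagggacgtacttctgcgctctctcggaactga
Trav15d-2-dv6d-2: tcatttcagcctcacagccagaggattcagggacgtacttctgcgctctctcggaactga
Trav15-1-dv6-1: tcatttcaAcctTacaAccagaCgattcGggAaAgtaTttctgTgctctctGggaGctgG
Trav15d-1-dv6d-1: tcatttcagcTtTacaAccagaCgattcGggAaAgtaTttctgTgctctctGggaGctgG

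All dv-named segments together held 12.2% and 33.8% in WT and 13.3% and 25.5% in KO, and without the 2 Trav15 segments 11.3% and 7.42% in WT and 12.4% and 10.7% in KO. Leaving these 2 segments out and rescaling, the WT libraries came closer, with a distal share of 27.7% and 26.9% in WT and 19.1% and 19.2% in KO and a proximal share of 36.5% and 41.6% in WT and 49.2% and 53.5% in KO. Both zones were then farther apart between genotypes. The mean Trav rank became 42.4 and 44.6 in WT and 48.4 and 49.9 in KO. In limma 0 of the remaining 78 Trav segments passed without the block (2 at an unadjusted p under 0.05), and 14 rose and 21 fell with it.

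Invariant NKT cells carry Trav11 joined to Traj18 and MAIT cells Trav1 joined to Traj33. Mature cells of both kinds bear CD3e, and the cells here were sorted as CD3e-negative, but the purity of the sort cannot be read from these data. Trav11-Traj18 was at 0.0451% and 0.0287% in WT, 0.0346% in KO replicate 1 and 0 in KO replicate 2. Trav1-Traj33 was at 0.0378% and 0.0192% in WT, 0.0128% in KO replicate 1 and 0 in KO replicate 2. Neither pair was called by limma (adjusted p = 0.561 and 0.206). Trav11 itself was at 0.611% and 0.115% in WT and 0.599% and 0.0739% in KO. The part of such cells in the results was not tested.

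Joining both axes, the largest proportional loss in KO was in pairs of a distal Trav with a 3' Traj, the kind that late rounds of rearrangement make. These pairs summed to 9.43% and 5.39% in WT and 2.28% and 2.07% in KO, which is 0.242 and 0.385 of WT in replicates 1 and 2. Central Trav segments with a 3' Traj held 11.4% and 8.97% in WT and 4.11% and 3.89% in KO (0.362 and 0.433 of WT). Proximal Trav segments with a 3' Traj held 5.98% and 7.2% in WT and 4.1% and 4.58% in KO (0.686 and 0.635). All 3 groups were lower in both KO libraries than in both WT libraries. In percentage points the mean loss was largest for central Trav, at -6.16, against -5.23 for distal and -2.25 for proximal Trav.

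The largest gain in percentage points was in pairs of a proximal Trav with a 5' Traj, the kind that first rounds make, from 16.5% and 22.1% in WT to 26.6% and 30.5% in KO. Distal Trav segments with a 5' Traj were also higher, at 5.7% and 4.23% in WT and 7.91% and 6.36% in KO, as were central ones, at 7.85% and 7.04% in WT and 11.9% and 9.53% in KO. As ratios of KO to WT in replicates 1 and 2, these gains were similar across zones. They were 1.61 and 1.38 for proximal, 1.52 and 1.35 for central and 1.39 and 1.5 for distal Trav. With a middle Traj, the order of genotypes depended on the Trav zone: distal Trav held 12.3% and 10.2% in WT and 8.74% and 7.96% in KO, whereas proximal Trav held 14.2% and 20% in WT and 18.8% and 22.1% in KO, with overlap. Exact two-sided permutation p was 0.333, the smallest possible, for each of the 7 of 9 blocks whose groups did not overlap.

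**Figure D4:**
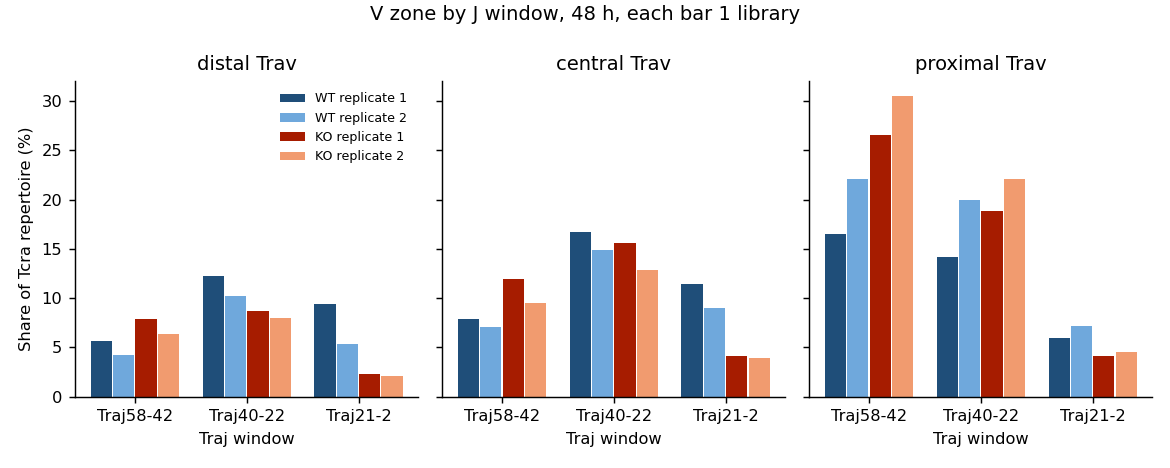
Share of the repertoire (percent, bars from 0) in the 9 combinations of a Trav zone (panels) and a Traj window (horizontal axis), with 1 bar per library. Bars of distal Trav with Traj21-2 drop from 9.43% and 5.39% in WT to 2.28% and 2.07% in KO, and those of proximal Trav with Traj58-42 climb from 16.5% and 22.1% to 26.6% and 30.5%.

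The Traj shift was found within every Trav zone. Among chains with a distal Trav, the mean Traj number (higher is more 5') was 28.5 and 30.1 in WT and 37.3 and 36.9 in KO. With a proximal Trav it was 37.1 and 37.3 in WT and 40.5 and 40.3 in KO. The KO minus WT difference was 7.81 for distal, 6.25 for central and 3.19 for proximal Trav, in the same order within each replicate, and the difference between zones was not tested. Among single Trav segments with at least 0.5% in all 4 libraries, the mean Traj number was higher in KO in 42 of 42 in replicate 1 and 38 of 42 in replicate 2, with median differences of 5.73 and 3.74. The 4 exceptions in replicate 2, named for that reason, were all proximal: Trav14-2, Trav8-2, Trav14-3 and Trav17. Segments of a library share its total, so these counts are no independent replicates.

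The Trav shift, in turn, was found among chains with a middle or 3' Traj, and hardly among those with a 5' Traj. With a 3' Traj the mean Trav rank was 36.1 and 40.6 in WT and 44.2 and 45.3 in KO, and distal Trav segments made up 35.3% and 25% of these chains in WT and 21.8% and 19.7% in KO. With a 5' Traj it was 51 and 54.2 in WT and 52 and 55 in KO, with overlap, and distal Trav made up 18.9% and 12.7% in WT and 17% and 13.7% in KO. The differences in rank were 6.34 for the 3', 4.19 for the middle and 0.914 for the 5' window, and the difference between windows was not tested. Within single Traj segments, Traj9 chains had a mean Trav rank higher in KO by 10.6 and 7.97, whereas for Traj58 the differences were 1.17 and -4.25. Replicate 2 varied at both ends of the array. Among less used 3' segments the differences were 11 and 8.94 for Traj4, 12.3 and -0.00954 for Traj7 and 10.3 and 0.585 for Traj2. For Traj53, at the 5' end, they were 1.18 and 5.31. Mean Trav rank was higher in KO within 34 of 35 Traj segments with at least 0.5% in replicate 1 and 31 of 35 in replicate 2.

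Weighting the KO Trav usage of each Traj segment by WT Traj usage asks how far the Trav shift depends on the Traj shift. The difference in mean Trav rank went from 5.96 to 4.8 in replicate 1 and from 3.95 to 2.83 in replicate 2. Conversely, at WT Trav usage the difference in mean Traj number went from 6.65 to 5.94 and from 4.83 to 3.94. Most of each difference was thus present at WT usage of the other segment. KO usage, which has less of the 3' Traj segments where the Trav shift was larger, was not tried as the weight. The usage-weighted correlation of Trav rank with Traj number over pairs, in which proximal Trav go with 5' Traj, was 0.272 and 0.263 in WT and 0.17 and 0.191 in KO.

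**Figure D5:**
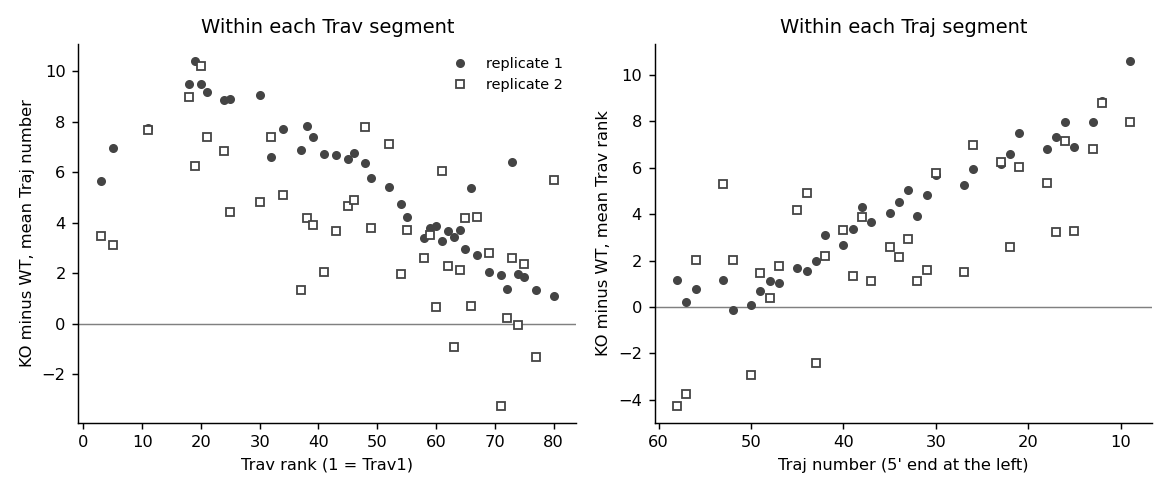
KO minus WT difference in mean Traj number within each Trav segment (left, against Trav rank) and in mean Trav rank within each Traj segment (right, against Traj number with the 5' end at the left), for segments with at least 0.5% in all 4 libraries. Filled circles are replicate 1 and open squares replicate 2. On the left 42 of 42 circles and 38 of 42 squares lie above 0, and on the right the circles are near 0 at the 5' end and reach 10.6 at the 3' end, whereas the squares scatter at the 5' end, from -4.25 (Traj58) to 5.31 (Traj53).

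Of single pairs, limma called 0 of 3440 (0%, 522 at an unadjusted p under 0.05), and with the replicate block 56 fell and 0 rose (1.63%). Of the 56, 52 had a 3' Traj, as do 1120 of all 3440 pairs. By zone, 34 had a distal, 20 a central and 2 a proximal Trav, out of 1161, 1118 and 1161 pairs. Their number depended on the setting. Leaving out a replicate number at 48 h with the block leaves 1 library per genotype there, so such a fit cannot test it. With the block, the number was 0 on the centred scale, without the 2 Trav15 segments, and in the 8 labelled libraries alone (920, 830 and 530 at an unadjusted p under 0.05). Without the block it was 247 when WT replicate 1 was left out (110 rose), 117 without KO replicate 1, 71 without WT replicate 2 and 0 without KO replicate 2. By sign alone, 373 of the 378 pairs of a distal Trav with a 3' Traj were lower in KO in replicate 1. Over all 3440 pairs, 1767 (51.4%) were lower. In replicate 2, where many pairs stood at 0, 159 of the 378 were lower and 48 higher, and the rest had equal values. Over all pairs 1220 were lower and 1199 higher in that replicate. KO lay above both WT libraries for 451 pairs (13.1%) and below both for 513 (14.9%).

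The pairs with the highest mean shares owed them to replicate 2 and were made of segments already named. Trav15-2-dv6-2-Traj48, the highest in WT, was at 0.0271% and 1.18% in WT and 0.038% and 0.681% in KO. Trav14-3-Traj49, the highest in KO, was at 0.0964% and 0.278% in WT and 0.182% and 0.799% in KO, higher in KO within both replicates and overlapping between them (log2 difference 1.17, adjusted p = 0.625, limma). Trav14-3-Traj52 was at 0.102% and 0.384% in WT and 0.2% and 0.651% in KO, and Trav4-4-dv10-Traj49 at 0.106% and 0.211% in WT and 0.166% and 0.644% in KO. In each of these 3, a proximal Trav was joined to a Traj of the Traj49 window. That window did not hold all of the highest pairs in KO. Trav15-2-dv6-2-Traj42 had a higher KO mean (0.421%) than Trav4-4-dv10-Traj49 (0.405%), and Trav15-2-dv6-2-Traj39 followed at 0.387%. Both of these Trav15-2-dv6-2 pairs have a Traj outside the window. Their log2 differences within replicates were 0.65 and -0.12 for the Traj42 pair and 0.43 and 0.27 for the Traj39 pair. Among pairs named after their values were seen, Trav3-3-Traj45 was at 0.116% and 0.0382% in WT and 0.244% and 0.221% in KO, without overlap (1.64, adjusted p = 0.22, limma). The pair of the array's inner ends, Trav21-dv12-Traj58, was at 0.236% and 0.115% in WT and 0.313% and 0.0886% in KO. The effective number of pairs was 2308.1 and 1030.9 in WT and 1876.3 and 1070.6 in KO, so that the replicate tables differed more than the genotypes.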

How the data were processed

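Tcra transcripts were amplified by template-switch RACE with a primer in Trac, from Trizol RNA of sorted cells, per the labels' protocols. The authors deposited fractions: per the file headers, rows are Trav and columns Traj segments, and a cell is the fraction of that pair. For the aligner, genome build, segment assignment and counted unit (reads, molecules or clonotypes): not given in the sources used here. Depth in reads is likewise unknown. Tests were written with counts as a possibility; since the files hold fractions, limma was used.

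Tables were divided by their totals over the 80 Trav rows listed in all 4 tables at 48 h and expressed as percent. Trav18 and Trav7-6 (listed in replicate 1 only), Trav13d-2 and Trav5-1 (replicate 2 only) and Trav4d-2 (not in KO replicate 2) were left out. These rows and blank rows aside, 98.4% to 99.7% of each 48 h table was kept. Trav2, not listed in 1 table at 24 h, was missing there, not 0.

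Limma 3.58.1 in R 4.3.3 fitted log2(percent + 0.01) with a mean for each of 6 groups of 2 libraries, over all 12 libraries (6 residual degrees of freedom, 3 with the replicate block), and Benjamini-Hochberg adjustment ran over all Traj, Trav or pairs at 0.05. The spread in these fits is thus not that of the 48 h libraries alone. Median absolute deviations from group means (log2) were 0.081 over Trav segments and 0.0786 over pairs at steady state, and 0.506 and 0.375 at 48 h. A fit of the 4 libraries at 48 h alone called 12 Traj segments that rose and 19 that fell, of 43. It called 0 of 80 Trav segments and 0 of 3440 pairs (111 pairs at an unadjusted p under 0.05). Fold changes on this scale understate low shares. The fits were tried on simulated data with independent noise in each library. Those data lacked the deviations that same-numbered libraries share, so they cannot show how either fit behaves with them. Values of 1 number per library were compared by exact permutation. Replicate numbers come from the titles. Deviations of same-numbered libraries from their group means correlated by 0.94, 0.66 and 0.412 over Traj and by 0.726, 0.927 and 0.931 over Trav segments (steady state, 24 h, 48 h), so numbers were taken to pair libraries. At 24 h and 48 h the number coincides with the table total and resolution. Whether it marks a batch is not stated.

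Segments named were both ends of the Traj array, the 8 largest called rises and falls and those at the change of sign; the 6 most positive and most negative Trav with a mean share of at least 0.5%, the 3 at each end, Trav11 and Trav1; and the 5 highest pairs per genotype, with marker pairs. Others were named after their values were seen. Not all of them are marked so, Traj18 among those unmarked. Windows, zones, lists and this comparison were chosen with earlier results of these data known. Sequences are from GENCODE M21 transcripts (GRCm38), read with Biopython 1.88. The alternatives were other pseudocounts (0.001, 0.1), the replicate block, fewer libraries, no rescaling, a centred scale, a filter at 0.02%, leaving out each library and, added after seeing the data, leaving out 2 Trav15 segments and combinations with the block.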

Additional observations from a re-analysis of the deposited data

Results flagged for a closer look

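The KO minus WT difference at 48 h differed from that at 24 h in limma (adjusted p under 0.05) for 13 Traj segments. It was higher at 48 h, on the log2 scale, by 0.85 for Traj43, 0.90 for Traj42, 0.72 for Traj40, 0.97 for Traj39, 0.65 for Traj37, 0.67 for Traj35, 0.65 for Traj34, 0.63 for Traj33, 0.62 for Traj32 and 0.84 for Traj31. For the most 3' segments it was lower at 48 h: -1.10 for Traj11, -0.69 for Traj9 and -0.81 for Traj2. With the replicate block 19 were higher and 7 lower. On the centred scale 2 were higher and 1 lower without the block, and 16 and 11 with it.

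Among rows outside the comparisons, Trav18 and Trav7-6, listed in the replicate 1 tables, had a higher share in KO than in WT. Trav18 held 0.0303% of KO and 0.0205% of WT replicate 1, and Trav7-6 held 0.0401% and 0.0232%. The remaining such rows held more of the repertoire and were lower in KO. Trav5-1 held 0.237% of KO and 0.719% of WT replicate 2, and Trav13d-2 held 0.259% and 0.7%. Trav4d-2 held 0.244% of KO and 0.352% of WT replicate 1. Each of these comparisons has 1 library per genotype, and the differences were not tested.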

How the results depend on the processing

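None of the 21 named Traj segments, the 16 named Trav segments or the named pairs changed sign with a call under any alternative run. Other Traj segments did. With the block on the centred scale all 7 segments from Traj38 to Traj31 rose, among them Traj37 (-0.01), Traj33 (-0.01) and Traj32 (-0.03), slightly negative in the main fit. The 28 Traj calls (12 rose, 16 fell) became 7 (0 rose, 7 fell) without rescaling, where replicate 2 tables keep totals of 1.99 and 1.98 and every rise, Traj52 and Traj45 included, lost its call. They became 18 to 27 when a library was left out. The 0 Trav calls became 28 with the replicate block, 35 with the block and without 2 Trav15 segments, 24 with the block on the centred scale, 19 with the block without replicate 1 at 48 h and 1 with the block without replicate 2 at 48 h. The 0 pair calls became 56 with the block, 46 with a pseudocount of 0.1, 46 without the 2 Trav15 segments, 1023 with the block without replicate 1 at 48 h (478 rose, 545 fell), and 0 to 247 when a library was left out. The difference of the 5' window was 14.7 points and became 17.2 with pairs under 0.02% set to 0. The cause of these changes was not tested. Pairing by replicate number changed the calls of Traj56 and Traj30 among the 21 named Traj segments and of 13 of the 16 named Trav segments, and no call of a named pair. Depth is unknown, and the coarse replicate 2 tables, with 45.2% and 44.8% of pairs at 0, limit what single pairs can show.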
